A study of Picromerus lewisi with 6 samples.

Results

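Genes of the cell cycle and of DNA replication of the predatory stink bug Picromerus lewisi were followed in venom glands, in 3 adult libraries and 3 libraries from nymphs of the 5th instar. Members were the transcript clusters whose first protein match names the stink bugs Halyomorpha or Nezara and whose Swiss-Prot description names a cyclin, a cyclin-dependent kinase, a replication factor, a DNA polymerase, a topoisomerase or another protein of this set by a fixed text pattern. The pattern found 180 members among 22242 clusters. The label held for most of them only. By description, 124 carried names of the cell cycle or of DNA synthesis and repair, although some of these, such as CDK9, CCAR1 and CDC123, are known for other work, 55 were reverse transcriptases of transposons, caught because their name contains "DNA polymerase", and 1 was calcyclin-binding protein, caught by its spelling. The 124 are called cell cycle members here, and the other 56 are described at the end.

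A cell that divides copies its DNA once and then separates the copies. Cyclins bind cyclin-dependent kinases and set the order of these steps, the origin recognition complex and the MCM helicase license and open the DNA, and polymerases with their sliding clamp copy it. Condensin compacts the copied chromosomes, kinetochores tie them to the spindle, and the anaphase-promoting complex releases them. Several relatives with similar names serve transcription, splicing or DNA repair instead, and many insect gland cells copy their DNA without dividing.

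The labels give the tissue and the stage of each library, and no strain, treatment, sex or age in days was used here. No label says how many insects a library holds or whether libraries of a stage are independent, so the tests measure the spread between these libraries. Values are FPKM, that is fragments scaled by cluster length and by library size, and between 13335748 and 18652796 fragments per library were recovered from them in clusters of at least 400 bases. Of these, clusters with a stink bug match and a Swiss-Prot name held 676321, 6164848 and 3547742 in the adult libraries, in replicate order. In the nymph libraries they held 2126387, 4027313 and 2141750. Adult replicates 1 and 3 had 4927 and 8679 clusters at an FPKM of at least 1, against 18155 in adult replicate 2 and from 10862 to 14040 in nymph glands. Names of venom proteases and other gland products picked 73 clusters, some of them only by spelling. Of the 73, 62 were abundant enough to be tested, and in each library 58 to 68 were at an FPKM of at least 1. Their stage differences, which leaned toward adults, are given below with the tissue markers. Because the tissue is a mixture, fewer cells of a type and less RNA per cell cannot be told apart.

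Several transcripts of the replication machinery had higher values in every nymph library than in any adult library, and no single member passed the test. These included the helicase subunits Mcm7 and mcm5, 3 of the 4 Mcm6 clusters and the longest of the 3 clusters of the sliding clamp PCNA. The small subunit of ribonucleotide reductase and the mitotic kinase CDK1 were also among them. Nymph libraries were all above adult libraries for CDK10 as well. Only once values were rescaled, as described below, did this hold for a second PCNA cluster and for CDC5L, a cell division cycle 5-like protein. The stages overlapped for the transcription kinases CDK9 and CDK12, for CDK14, for topoisomerase 1 and for the anaphase-promoting complex subunit CDC27. Levels were low throughout, with a median over cell cycle members of 1.98 FPKM in the mean of the 6 libraries and a highest mean of 14.3 FPKM.

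Before the stages were compared, each library's FPKM were rescaled by 1 factor, taken from the 4653 clusters listed above 0 in all 6 libraries, and log2(rescaled FPKM + 1) was tested. Stages are called apart where the rescaled values of one lie all above those of the other, while values given per library are the deposited FPKM in the order of replicates 1, 2 and 3. Clusters under 400 bases, 27 of the 124 cell cycle members, reach a high FPKM from few fragments. A cluster was tested where its FPKM reached 1 in at least 3 libraries. That left 97 of the 180 members and 64 of the 124 cell cycle members, and a member absent from adults could enter only through the nymph libraries. None of the 97 passed the limma test at an adjusted p under 0.05, where 0.234% of all 11961 tested clusters passed, and the smallest adjusted p of a member was 0.22. At an unadjusted p under 0.05, 15 cell cycle members (23.4% of those tested) were lower in adult glands and 0 were higher, against 6.09% and 2.95% of all tested clusters, or 9.05% in either direction. The stages did not overlap, with nymphs higher, for 18 of the 64 cell cycle members, which is 28.1% against 10.1% of all tested clusters and 11.1% of those with a stink bug match and a Swiss-Prot name. With adults higher it was 1 member, or 1.56%, against 3.95% and 4.54%. In either direction, 14.1% of all tested clusters were apart. The median log2 difference, adult minus nymph, was -0.75 over the tested cell cycle members and -0.29 over all tested clusters, and 52 of the 64 lay below 0, or 81.2% against 61.6% of all tested clusters and 63.9% of those with a stink bug match and a Swiss-Prot name. Of the 18 members apart with nymphs higher, 6 had every adult value under 1 and so were tested only through the nymph libraries. A further limit is adult replicate 1, which held the fewest fragments in clusters with a stink bug match and a Swiss-Prot name. In that library 15 of the 18 were listed at 0. For 5 of these 15, 3 fragments there would have given a rescaled value above the lowest nymph value, and for 2 clusters under 400 bases no such value was computed. An adjusted p above the threshold does not show that the stages were alike.

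**Figure D1:**
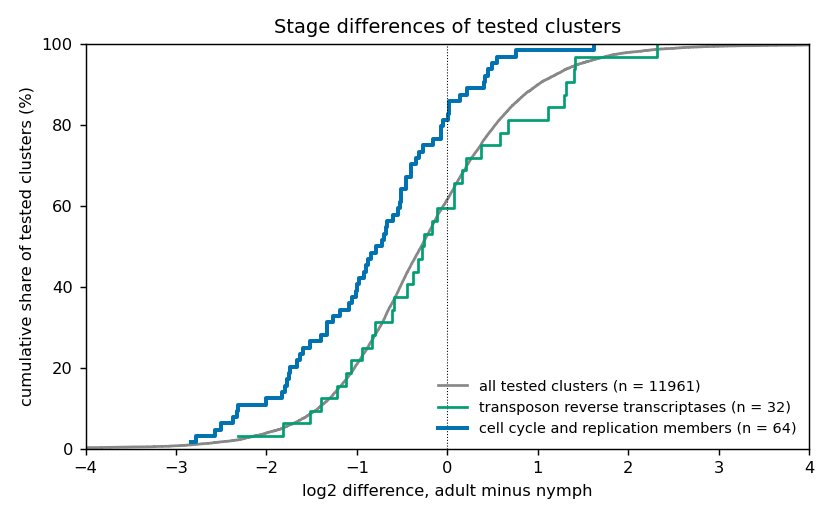
Cumulative share of tested clusters (percent, vertical axis) by log2 difference, adult minus nymph (horizontal axis, on the log2(rescaled FPKM + 1) scale), for all 11961 tested clusters, 64 cell cycle members and 32 transposon reverse transcriptases. The line of the cell cycle members lies to the left of the others, with 52 of 64 (81.2%) below 0 against 61.6% of all clusters, while the transposon line stays near the line of all clusters.

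In the licensing machinery, the MCM helicase, the ring of MCM2 to MCM7 that opens the double helix, was represented by 15 clusters, several of them fragments of 1 gene. Of the 15, 7 had an FPKM of 0 in all adult libraries and none had it in all nymph libraries, against 9.16% and 12.8% of all clusters. Their recovered fragments, summed over clusters of at least 400 bases, came to 0, 58 and 99 in the adult libraries, in replicate order, against 310, 496 and 716 in the nymph libraries. Every nymph library thus held over 3 times the fragments of the highest adult library. Mcm7 (Cluster-6939.0, 1519 bases) was listed at 0, 0.22 and 0 FPKM in adult glands against 5.11, 6.46 and 10.7 in nymph glands. The adult value of 0.22 FPKM stands for 4 fragments, and the nymph values for 96, 151 and 237. In adult replicate 1, the library with the fewest clusters listed, 3 fragments of this cluster would have given 0.175 FPKM, or 0.617 after rescaling, and the lowest rescaled nymph value was 4.75. Its log2 difference was -2.83 ± 0.71 (SE), with a limma adjusted p of 0.22.

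**Figure D2:**
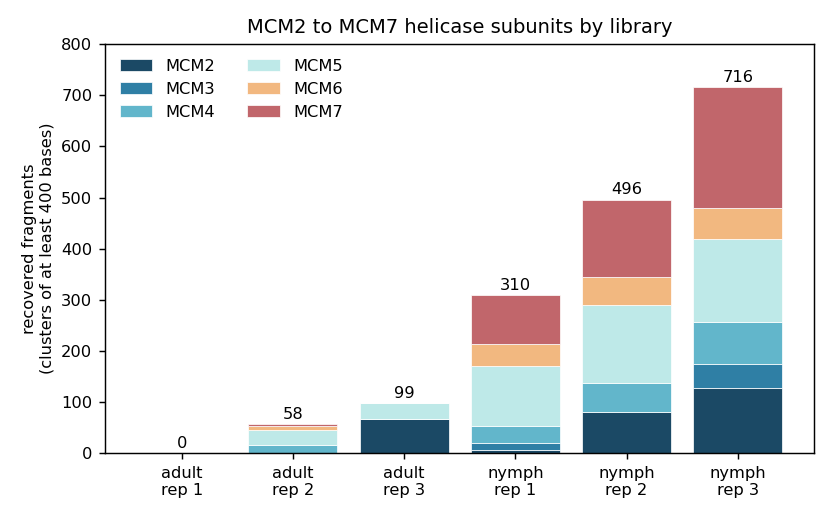
Recovered fragments (vertical axis, from 0) of the 6 MCM helicase genes in each library, stacked by gene, over clusters of at least 400 bases and without correction for library size. The adult libraries hold 0, 58 and 99 fragments and the nymph libraries 310, 496 and 716.

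The subunit mcm5 (Cluster-10455.0, 2316 bases) was at 0, 0.97 and 0.84 FPKM in adult glands against 3.89, 3.96 and 4.41 in nymph glands (log2 difference -1.80, limma adjusted p = 0.43). Mcm6 was covered by 4 clusters, and in 3 of them the stages did not overlap. The longest of these, Cluster-6651.0 of 979 bases, was at 0, 0.28 and 0 FPKM in adult glands against 1.91, 3.06 and 3.79 in nymph glands. Cluster-12625.0, a Mcm6 fragment of 348 bases, was at 0 in all adults and at 7.94, 5.8 and 3.49 FPKM in nymphs (log2 difference -2.57, limma adjusted p = 0.24). In adult replicate 1, 3 fragments of Cluster-6651.0 would have given a rescaled 1.1, below its lowest nymph value of 1.87. For the third, Cluster-9356.0 of 598 bases, they would have given 2.44, above its lowest nymph value of 1.9. That difference was not detectable there, and for Cluster-12625.0 no such value was computed. For Mcm2 the stages overlapped in the tested cluster, since Cluster-2006.1 was at 4.9 FPKM in adult replicate 3 and at 0, 1.97 and 2.46 in nymph glands. Its other long cluster, Cluster-12353.0, was listed at 0 in all adults and at 0.75, 4.86 and 9.2 FPKM in nymphs.

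Among the factors that act with the helicase, no tested cluster separated the stages. The origin recognition complex, which marks the sites where the helicase is loaded, had a subunit 1 cluster (Cluster-6448.0) at 2.01, 0 and 2.13 FPKM in nymphs and a subunit 5 cluster (Cluster-2132.0) at 11.9 FPKM in nymph replicate 3 alone, both at 0 in all adults. GINS protein PSF2 (Cluster-8726.0), part of the active helicase, overlapped, at 0, 2.54 and 6.56 FPKM in adult glands against 2.25, 3.06 and 2.8 in nymph glands. So did CDC7 (Cluster-9520.3184), the kinase that activates the loaded helicase, at 0.39, 5.33 and 0 FPKM in adult glands against 1.47, 2.29 and 2.98 in nymph glands. The nuclease DNA2, which trims flaps on the lagging strand, led the role by mean FPKM through short clusters. Cluster-12215.0 of 402 bases was at 0, 3.05 and 18.4 FPKM in adult glands against 10.9, 0 and 0 in nymph glands, and Cluster-12591.0 of 559 bases at 0, 1.54 and 12.4 in adult glands against 3.45, 0 and 5.83 in nymph glands.

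**Figure D3:**
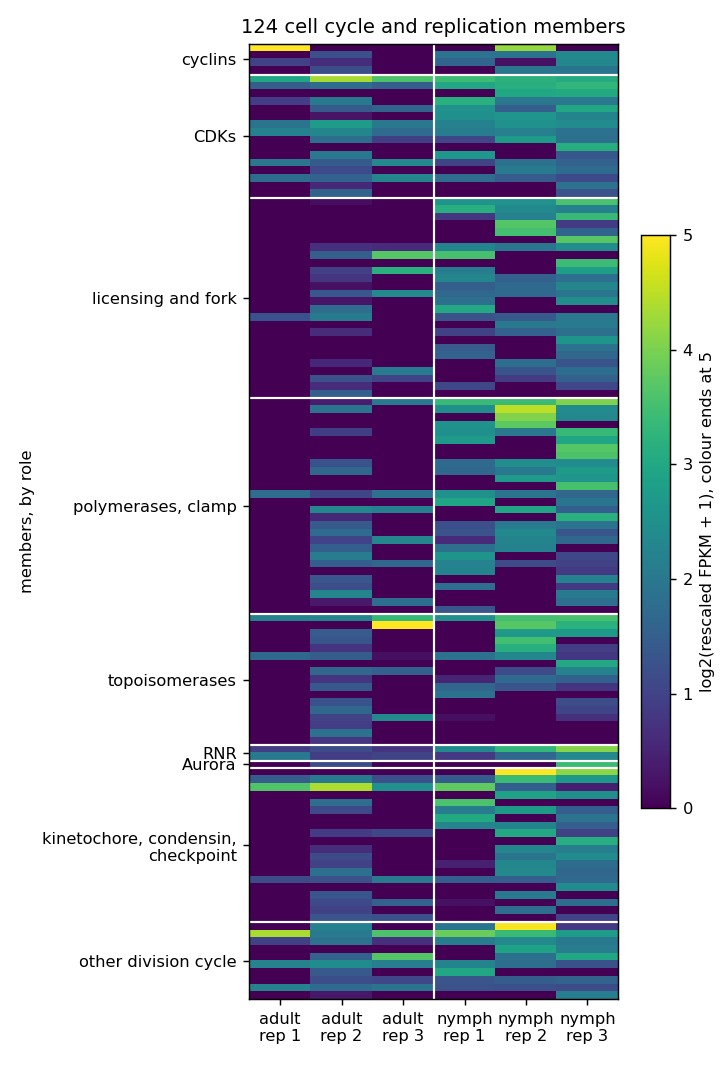
The 124 cell cycle members (rows, by role and within a role by mean nymph level) in the 6 libraries (columns), coloured by log2(rescaled FPKM + 1) from 0 to 5. Dark rows in the adult columns are most frequent among licensing factors and polymerases, where 10 of 26 and 10 of 28 members were listed at 0 in all adult libraries.

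Among the proteins that copy DNA, PCNA, the ring that holds polymerases on the template, led by mean FPKM. Its longest cluster (Cluster-9520.3769, 1064 bases) was at 0, 0.51 and 5.07 FPKM in adult glands against 9.65, 13.1 and 15.2 in nymph glands, or 0, 6 and 74 fragments against 118, 193 and 211. All nymph libraries were above all adult libraries, with adult replicate 3 nearest to them (log2 difference -2.78 ± 0.71 SE, limma adjusted p = 0.22). A second PCNA cluster of 349 bases (Cluster-9790.0) was at 0, 4.54 and 0 FPKM in adult glands against 4.73, 29.5 and 4.31 in nymph glands, and its stages were apart only after rescaling (log2 difference -2.50, limma adjusted p = 0.36). The other PCNA cluster, Cluster-9520.2201 of 508 bases, overlapped, at 0, 6.56 and 5.37 FPKM in adult glands against 0, 9.25 and 1.8 in nymph glands.

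DNA polymerase alpha, which starts each new strand, had 5 clusters for its catalytic subunit, of 316 to 575 bases, and all 5 were listed at 0 in every adult library. In nymphs they reached from 3.87 to 16.9 FPKM in their highest library, none was listed in all 3, and none was tested. The tested cluster of its subunit B (Cluster-12863.0, 393 bases) overlapped, at 0, 5.54 and 0 FPKM in adult glands against 5.12, 0 and 1.08 in nymph glands. For polymerase delta, a main polymerase of the fork, the subunit 2 cluster (Cluster-8296.0, 432 bases) was at 0, 1.47 and 0 FPKM in adult glands against 4.84, 4.11 and 9.11 in nymph glands (log2 difference -2.32, limma adjusted p = 0.32). In adult replicate 1, 3 fragments of Cluster-8296.0 would have given a rescaled 5.23, above the nymph values of 4.73 and 3.02, so a difference from that library was not detectable at this depth. A longer cluster of the same subunit (Cluster-8296.2, 724 bases) overlapped, at 0, 2.75 and 0 FPKM in adult glands against 1.37, 4.38 and 2.7 in nymph glands. Subunit 3 of the same polymerase (Cluster-9520.5851, 1763 bases) overlapped too, at 0, 1.65 and 6.2 FPKM against 0.54, 5.1 and 2.15. The catalytic subunit of polymerase delta was split over 5 clusters, all overlapping or untested. The small histone-fold subunits of polymerase epsilon had their rescaled values apart. Subunit 3 (Cluster-9520.6395) was at 0, 2.28 and 0 FPKM in adult glands against 2.3, 6.06 and 4.28 in nymph glands, and subunit 4 (Cluster-12574.0) at 0, 3.5 and 0 and at 2.28, 4.13 and 5.59, apart only after rescaling. In adult replicate 1, 3 fragments of Cluster-9520.6395 or Cluster-12574.0 would have given a rescaled 2.61 or 3.25, above the lowest nymph values of 2.25 and 2.23, so neither difference was detectable there.

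No tested cluster of a repair polymerase separated the stages. Polymerase beta (Cluster-11028.0), of base excision repair, was at 0.7, 1.72 and 4.14 FPKM in adult glands against 4.79, 3.81 and 2.1 in nymph glands. The longest cluster of polymerase zeta (Cluster-9520.7685), which copies past damaged bases, was at 0, 2.99 and 3.4 in adult glands against 3.76, 1.68 and 0.96 in nymph glands. The mitochondrial polymerase gamma (Cluster-2404.0) and polymerase eta (Cluster-4476.0) were short fragments, listed in 1 and 2 nymph libraries and in no adult library.

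Ribonucleotide reductase makes the building blocks of DNA from those of RNA, and its subunits differed in pattern. The small subunit M2 (Cluster-9520.6640, 2300 bases), whose level is known in mammals to follow DNA synthesis, was at 0.25, 1.99 and 1.09 FPKM in adult glands against 4.32, 12.1 and 15.9 in nymph glands, or 7, 59 and 41 fragments against 130, 465 and 575. Each nymph library lay above each adult library (log2 difference -2.32 ± 0.66 SE, limma adjusted p = 0.27). The large subunit (Cluster-9520.5544, 2592 bases) was at 0.87, 1.42 and 1.6 FPKM in adult glands against 0.79, 3.04 and 4.09 in nymph glands, with overlap. The difference between the subunits was not tested.

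Topoisomerases release the twist and the tangles of DNA, and the stages overlapped in all 7 tested clusters of this role. Among the 7, Cluster-5332.0 and Cluster-5831.0 are described as topoisomerase 2-binding protein 1, a partner by name and not a topoisomerase. Topoisomerase 1 (Cluster-9520.4141, 3296 bases), used in transcription as well as replication, was at 1, 6.1 and 14.1 FPKM in adult glands against 4.79, 14 and 10.5 in nymph glands. A topoisomerase 3-alpha fragment of 328 bases (Cluster-4185.0) had the highest mean of the role, from 61.4 FPKM in adult replicate 3 and 16.4 and 8.01 in nymph replicates 2 and 3. Topoisomerase 2, needed to separate copied chromosomes, was split over 6 clusters, the longest of which (Cluster-11284.0) was at 0.62, 2.9 and 0.23 FPKM in adult glands against 2.68, 5.37 and 0.75 in nymph glands.

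**Figure D4:**
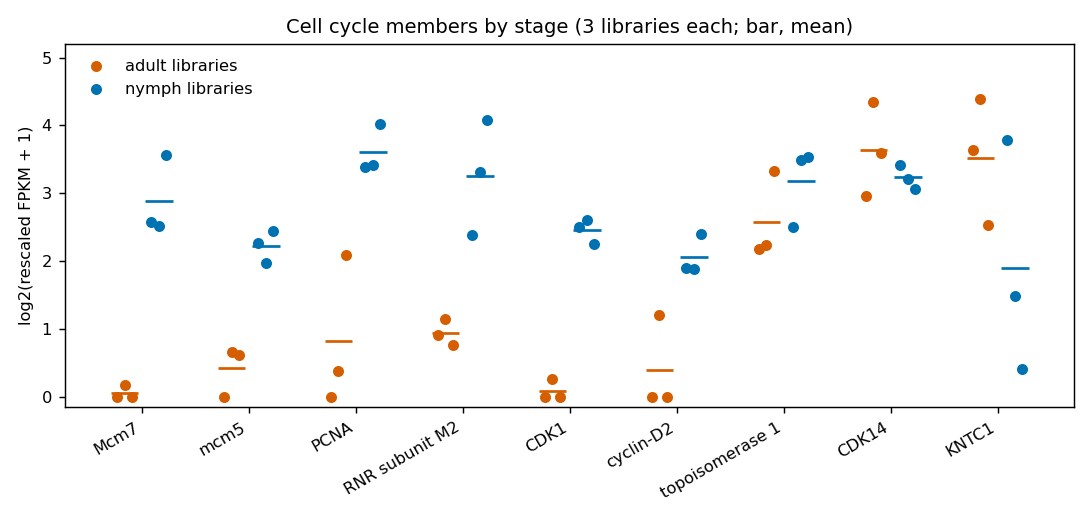
Values of 9 members as log2(rescaled FPKM + 1) in the 3 adult and 3 nymph libraries (points) with the mean of each stage (bars). Stages are apart for Mcm7, mcm5, PCNA, ribonucleotide reductase (RNR) subunit M2, CDK1 and cyclin-D2, and overlap for topoisomerase 1, CDK14 and KNTC1.

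Among the cyclins and kinases, the stages were apart for CDK1, CDK10 and cyclin-D2 and overlapped for the other 11 tested clusters. CDK1 (Cluster-6054.0, 665 bases), the kinase of mitotic entry, was at 0, 0.33 and 0 FPKM in adult glands against 4.79, 6.9 and 3.72 in nymph glands, or 2 fragments in all adults against 31, 49 and 25 in nymph glands. Its log2 difference was -2.36 ± 0.67 (SE), with a limma adjusted p of 0.27. In adult replicate 1, 3 fragments of so short a cluster correspond to a rescaled 2.01 FPKM, and the lowest rescaled nymph value was 3.76. Cyclin-D2 (Cluster-9520.4747), which carries cells into DNA synthesis, was at 0, 2.17 and 0 FPKM in adult glands against 2.8, 3.66 and 4.24 in nymph glands (log2 difference -1.66, limma adjusted p = 0.53). The other 3 cyclins overlapped or were not tested. Cyclin-A2 (Cluster-9520.3325) was at 0.28, 0.96 and 0 FPKM in adult glands against 2.15, 0.24 and 3.93 in nymph glands, and cyclin-B2 (Cluster-4593.0) at 0, 2.15 and 0 and at 0, 3.96 and 2.84. A cyclin-B3 fragment of 349 bases (Cluster-3108.0) was listed at 15.7 FPKM for adult replicate 1 and at 23.7 for nymph replicate 2, and at 0 elsewhere. Of CKS1, the small partner of CDK1, both clusters (Cluster-3697.0 and Cluster-3415.0) were listed at 0 in all adults and reached 9.32 and 7.61 FPKM in nymphs.

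Among the other kinases, CDK14 (Cluster-9520.3957), which acts with cyclin Y in Wnt signalling, was the most abundant, at 1.93, 31.7 and 17.4 FPKM in adult glands against 9.92, 11.3 and 7.31 in nymph glands. CDK12 (Cluster-9520.2924) and CDK9 (Cluster-6306.0), which act on RNA polymerase during transcription, both overlapped. CDK12 was at 0.79, 9.29 and 4.69 FPKM in adult glands against 3.69, 6.45 and 4.26 in nymph glands, and CDK9 at 0.71, 3.27 and 5.97 and at 2.49, 2.31 and 1.15. CDK6 (Cluster-9520.5189), a partner of cyclin D, also overlapped, at 0, 2.72 and 3.21 FPKM in adult glands against 4.87, 2.54 and 6.83 in nymph glands. CDK10 (Cluster-9520.2274) separated the stages, at 0.53, 4.09 and 2.91 FPKM in adult glands against 6.98, 10.8 and 8.64 in nymph glands (log2 difference -1.52, limma adjusted p = 0.40). CDK17 (Cluster-9588.0), of the PCTAIRE kinases, was at an FPKM of at least 1 in every library, at 1.01, 6.43 and 3.69 in adult glands against 3.45, 4.79 and 2.64 in nymph glands.

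In the mitotic apparatus, fragment sums of condensin varied between subunits, but no difference between subunits was tested. Summed over clusters of at least 400 bases, all adult libraries held 0 fragments of subunit 1, 38 of subunit 2, 168 of condensin-2 subunit D3 and 349 of condensin-2 subunit H2, and all nymph libraries 101, 195, 560 and 304. These sums are not corrected for library size, and adult replicate 3 gave 249 of the 349. Condensin complex subunit 2 (Cluster-7550.0, 570 bases) was at 0 in all adults and at 3.93, 5.1 and 1.8 FPKM in nymphs, which is 20, 27 and 9 fragments (log2 difference -2.01, limma adjusted p = 0.31). In adult replicate 1 the rescaled value of 3 fragments, 2.68, was above the lowest rescaled nymph value of 1.82, so for that library the difference was not detectable at this depth. The longer cluster of subunit 2 (Cluster-3082.0, 980 bases) overlapped, at 0, 1.41 and 1.76 FPKM in adult glands against 0, 9.69 and 0.97 in nymph glands. All 3 clusters of condensin subunit 1 were listed in at least 1 nymph library, and of the adult libraries only replicate 2 listed any of them, Cluster-12714.0 at 3.99 FPKM. Condensin-2 subunit D3 separated the stages in 1 of its 5 clusters (Cluster-5526.0, 0, 1.9 and 0 FPKM in adults, 3.41, 7.65 and 1.79 in nymph glands), also only after rescaling. The spindle checkpoint proteins BUB3 (Cluster-4395.1, 0, 2.04 and 0 FPKM in adults, 0, 3.81 and 4.25 in nymph glands) and MAD1 (Cluster-9520.1800, 0, 1.9 and 3.07 against 0.17, 0 and 2.48) overlapped. A BUB3 fragment of 305 bases (Cluster-4395.0) was at 44.3 and 16.4 FPKM in nymph replicates 2 and 3 and at 0 elsewhere. Aurora kinase (Cluster-4148.0, 383 bases), of chromosome segregation, was at 1.98 FPKM in adult replicate 2, at 9.49 in nymph replicate 3 and at 0 elsewhere.

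Kinetochore-associated protein 1 (KNTC1, Cluster-9520.1591, 2829 bases), which brings the checkpoint to kinetochores, was at 3.25, 32.8 and 7.45 FPKM in adult glands against 13.1, 2.46 and 0.33 in nymph glands, or 115, 1220 and 353 fragments against 495, 119 and 15. Its values were high in adult replicate 2 and nymph replicate 1, the stages overlapped, and the log2 difference was 1.62 ± 0.88 (SE), with a limma adjusted p of 0.67. It was the largest positive difference among the tested cell cycle members.

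The remaining division cycle proteins were the most evenly listed, with 3 of 10 at an FPKM of at least 1 in all libraries. Anaphase-promoting complex subunit CDC27 (Cluster-9520.2205) was at 1.05, 7.24 and 5.29 FPKM in adult glands against 3.88, 3.38 and 1.37 in nymph glands. CDC16 (Cluster-7411.0), of the same complex, was at 0, 2.14 and 1.71 in adult glands against 1.51, 2.41 and 2 in nymph glands, apart only after rescaling. The other CDC16 cluster (Cluster-3366.0, 711 bases) overlapped, at 0, 3.27 and 18.1 FPKM in adult glands against 0, 3.51 and 6.89 in nymph glands, and both together held 234 fragments in all adult libraries and 188 in all nymph libraries. CDC20, which activates that complex, was covered among the members by 2 short clusters with at most 7 FPKM. A longer CDC20 cluster outside the members (Cluster-7637.0, 868 bases) overlapped, at 2.72, 0 and 0 FPKM in adult glands against 2.98, 1.18 and 1.25 in nymph glands. CDC5L (Cluster-9520.5918, 2649 bases) was at 0.27, 4.35 and 0.95 FPKM in adult glands against 3.44, 5.7 and 3.05 in nymph glands. Its stages were apart only after rescaling, with nymphs higher (log2 difference -1.0, limma adjusted p = 0.74). CCAR1 (Cluster-9520.5387), a transcription coactivator, was at 5.56, 5.14 and 17.5 FPKM in adult glands against 13.8, 12.6 and 5.61 in nymph glands. CDC123 (Cluster-9520.2806), which assembles a translation initiation factor, was the only member with adults above nymphs after rescaling, from 1.05, 3.85 and 4.4 FPKM in adult glands against 1.4, 1.8 and 1.22 in nymph glands (log2 difference 0.76, limma adjusted p = 0.77). A fragment of 360 bases with the same description (Cluster-9520.2807) was at 0, 5.89 and 0 in adult glands against 2.91, 40.1 and 0.76 in nymph glands.

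Libraries differed widely in how many members they listed, within as well as between stages. Of the 124 cell cycle members, the adult libraries listed 22, 90 and 40 above 0, in replicate order, and the nymph libraries 71, 79 and 108. As shares these were 17.7%, 72.6% and 32.3%, and 57.3%, 63.7% and 87.1%. Over the 8390 clusters with a stink bug match and a Swiss-Prot name the shares were 48.8%, 92.7% and 63.7% in adult glands against 78.5%, 76.2% and 85.8% in nymphs. Members were thus listed less often than these clusters in every library except nymph replicate 3. They were also shorter, with a median length of 628 bases against 1087, and the part of length in these shares was not tested. In all adult libraries together, 31 of the 124 were listed at 0, or 25.0% against 5.57% of the 8390 clusters, and in all nymph libraries 4 were, or 3.23% against 4.74%.

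**Figure D5:**
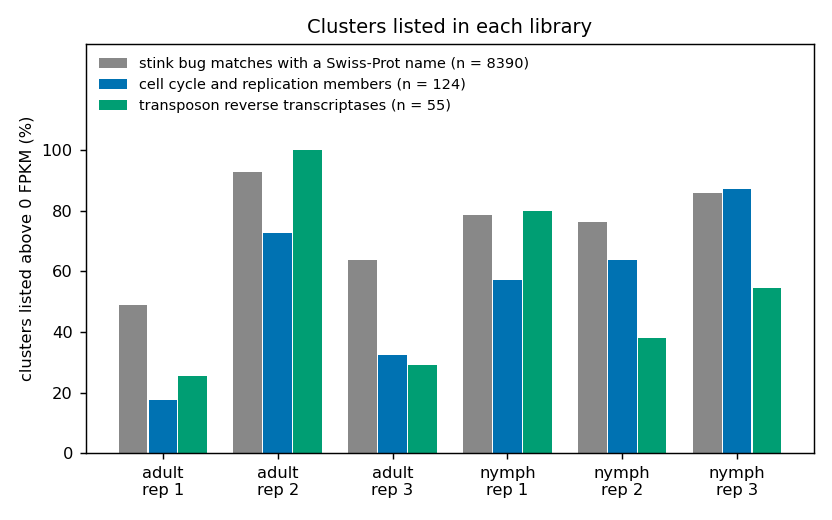
Share of clusters listed above 0 FPKM (percent, from 0) in each library, for 8390 clusters with a stink bug match and a Swiss-Prot name, 124 cell cycle members and 55 transposon reverse transcriptases. Cell cycle members stand at 72.6% in adult replicate 2, where the named clusters are at 92.7% and the transposon clusters at 100%, and at 87.1% in nymph replicate 3.

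Adult replicate 2 lists the most clusters of any library. With it as the only adult library, set against the 3 nymph libraries, 22 of 59 tested cell cycle members lay below all nymphs and 7 above them, where 23.0% and 23.1% of all 10032 tested clusters did so. The 22 are 37.3% of the 59. The median log2 difference was then -0.26 for these members and 0.02 for all clusters, and no member passed. The MCM clusters summed to 2.93 rescaled FPKM in this library and to 29.5, 36.3 and 67.8 in the nymph libraries. This choice of library was made after the data had been seen, and the lone adult library was assumed to vary as the nymph libraries do.

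A second list of names, meant for genes of the same pathway that the text pattern left out, gave 81 further clusters, of which 61 were tested. By description, some were caught by spelling, such as cyclin-G-associated kinase and retinoblastoma-binding protein 5. The list also holds cyclins C, K, L1 and T2, and whether each cluster belongs to the pathway was not checked. None passed, 12 were apart with nymphs higher (19.7%) and 1 with adults higher (1.64%), and their median log2 difference was -0.40, against 10.1%, 3.95% and -0.29 for all tested clusters. Flap endonuclease 1 (Cluster-9520.2715), which finishes lagging strands, was at 0, 0.42 and 0 FPKM in adult glands against 4.9, 4.67 and 3.82 in nymph glands (log2 difference -2.21, limma adjusted p = 0.31). Geminin (Cluster-9520.5863), the inhibitor of repeated licensing, was at 0, 1.09 and 0 in adult glands against 1.61, 7.01 and 6.99 in nymph glands. Both were picked after their values were seen. The most abundant were a subunit 4 fragment of the anaphase-promoting complex (Cluster-2648.0) at 65.2 FPKM in the third adult library and 12.35 in the third nymph library, listed at 0 in the others, the histone chaperone asf1 (Cluster-9520.495) at 0, 8.74 and 21.4 in adult glands against 14.5, 20.4 and 10.7 in nymph glands, and thymidylate synthase (Cluster-9520.2034). The last, which makes a DNA precursor, overlapped between stages, at 3.74, 14.5 and 15.2 FPKM in adult glands against 10.5, 21.1 and 9.65 in nymph glands.

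Of the markers of other tissues, those of cuticle and epidermis had summed levels that did not overlap between stages. Summed over 22 clusters of cuticle and epidermis, 12 of them at 0 in all adults, rescaled FPKM was from 5.13 to 13.1 in adults and from 45.9 to 321 in nymph glands, and all 10 tested clusters lay below 0, where 61.6% of all tested clusters did. Of these 10, 5 were apart with nymphs higher and 5 overlapped, 5 were lower in adults at an unadjusted p under 0.05, and their median log2 difference was -1.84. Muscle markers, 33 clusters with 19 of 25 tested below 0, had 7 of the 25 lower at an unadjusted p under 0.05 and a median of -0.82, beside 15 of 64 and -0.75 for the cell cycle members. They summed to between 106 and 350 in adults and between 309 and 595 in nymph glands, which overlaps. The 9 clusters of the fat body list include a vitellogenin receptor fragment (Cluster-1537.0), caught by spelling, at 42.6 FPKM in adult replicate 3 and 0 elsewhere. Fat body markers summed to between 1.13 and 57.2 in adults and between 24.3 and 30.2 in nymph glands, but single markers went opposite ways. Of the 4 tested, 2 were apart with nymphs higher, hexamerin and an apolipophorin (Cluster-10830.1), where 10.1% of all tested clusters were. Vitellogenin-2 was the 1 apart with adults higher, where 3.95% of all tested clusters were. The list of blood cell markers, 18 clusters, ran from 333 to 1320 in adults and from 261 to 1790 in nymph glands. Clusters described as phenoloxidase-activating enzyme made up most of these sums. Among them, Cluster-9520.4471 alone held 1271.85 of the 2170 deposited FPKM of the list in adult replicate 2. No cluster described as hemocytin, croquemort or phenoloxidase 1 exceeded 19.04 FPKM in any library. Whether the activating enzymes mark blood cells in this tissue was not tested. Nervous system markers, 17 clusters, ran from 61.3 to 83.8 in adults and from 63.2 to 78.8 in nymph glands. They include a nicotinic acid mononucleotide adenylyltransferase (Cluster-9520.6227), caught by spelling. Germ line markers, 7 clusters, ran from 5.95 to 34.7 and from 4.71 to 13.9. By description, the list of venom gland products also holds antitrypsin, neurotrypsin and inter-alpha-trypsin inhibitors, caught by spelling. The venom gland products had a median log2 difference of 0.65 over the 62 tested clusters. Of these, 30.6% lay below 0, where 61.6% of all tested clusters did. Adults were higher and apart for 17 (27.4%, against 3.95% of all tested clusters), and nymphs for 8 (12.9%, against 10.1%). Summed over all 73, rescaled FPKM ran from 66600 to 218000 in adults and from 55800 to 104000 in nymph glands, which overlaps. The part of any of these tissues in the values of the cell cycle members was not tested.

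The 55 transposon clusters behaved unlike the cell cycle members in where they were listed. They match the retroelements jockey, BS and X-element, whose reverse transcriptases copy their own RNA into DNA and take no part in chromosome replication. Their median FPKM by adult replicate was 0, 9.96 and 0, and by nymph replicate 6.37, 0 and 0.48. Adult replicate 2 listed all 55 above 0, and adult replicate 2 with nymph replicate 1 gave the highest pair of values in 35 of the 55. That is 63.6%, against 7.26% of the cell cycle members and 21.7% of all clusters. The stages were apart in 0 of the 32 tested, and their median log2 difference of -0.27 lay near that of all clusters. The most abundant by far was a jockey element (Cluster-9520.4399, 2572 bases), at 32.2, 223 and 10.3 FPKM in adult glands against 1470 in nymph replicate 1, with 134 and 101 in nymph replicates 2 and 3 (log2 difference -2.32 ± 1.25 SE, limma adjusted p = 0.67). A BS element (Cluster-9520.4436) followed, at 14.2, 182 and 0 FPKM in adult glands against 117, 23.5 and 8.56 in nymph glands. Of the 5 largest positive differences among tested members, KNTC1 had 1 and X-elements and BS elements the other 4, led by Cluster-9520.4187 of 328 bases, at 19.4, 62.3 and 0 FPKM in adult glands against 21.3, 0 and 0 in nymph glands (log2 difference 2.32, limma adjusted p = 0.74). Calcyclin-binding protein (Cluster-9520.1206), of protein degradation, was at 1.72, 12.3 and 7.26 FPKM in adult glands against 6.46, 10 and 12.5 in nymph glands.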

How the data were processed

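RNA of venom glands from 3 adult and 3 nymph samples was sequenced, and the authors deposited 1 table of FPKM per assembled transcript cluster with protein descriptions. The submitters' processing notes list, with no role or order, DESeq2 1.20.0, featureCounts 1.5.0-p3, HISAT2 2.0.5, CASAVA 1.8 and fastp, and no counts were used here. Deposited FPKM were rescaled by median ratio factors from 4653 clusters, which ran from 0.2835 in adult replicate 1 to 1.643 in adult replicate 2. After rescaling, log2(FPKM + 1) was compared with limma 3.58.1 in R 4.3.3 (trend and robust), adult minus nymph, over the 11961 clusters with an FPKM of at least 1 in 3 or more libraries, with Benjamini-Hochberg adjustment over all of them and a threshold of 0.05. Such differences understate the change of low clusters. Per-library values in the text are deposited FPKM unless called rescaled, and "apart" means no overlap of rescaled values.

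Whole fragments were recovered from low FPKM by fitting, for each library, a total and a number of bases taken off each length, from 217.5 to 293.25. Held-out values came out whole, within 0.15, in 99.4% to 100.0% of cases, where chance gives 30%. Because this offset is close to the length of the shortest clusters, a few fragments give them a high FPKM, so fragments are summed only over clusters of at least 400 bases. No count test was run on these fragments. A floor of 3 fragments covers counting error only.

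Members and lists were chosen with earlier results of these data known, and the split into roles, transposons and calcyclin-binding protein was made from descriptions once the table had been read. Members named by rule were those past the threshold, the 5 largest rises and 5 largest falls among tested members, the 2 with the highest mean FPKM in each role, and those at an FPKM of at least 1 in all 6 libraries, with the 3 most abundant of the other pathway genes. Members named beyond these were chosen after their values were seen. The labels give no batch. The fit was tested on simulated data with the same number of clusters and libraries. At the spread of these libraries many simulated differences were not recovered, so a member that did not pass may still differ between stages.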

Additional observations from a re-analysis of the deposited data

How the results depend on the processing

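No member passed the threshold under any alternative run, and the smallest adjusted p of a member (limma, Benjamini-Hochberg) ran from 0.071 without adult replicate 3 to 0.77 without nymph replicate 3. The direction of the 24 members followed one by one held in all 402 alternative values, but they were picked for separated stages or large differences, and none was past the threshold to begin with, so this is no sign of stability. The count over all clusters, 28, was less steady: 72 with FPKM as deposited, 47 with quantile normalization, 12 with a pseudocount of 0.1, 65 with a filter on mean FPKM, 104 with no filter, and 1 with adult replicate 2 as the only adult library, an alternative chosen after seeing the data. Leaving out 1 library at a time gave 1 to 54, namely 4, 1 and 54 when an adult library was left out, in replicate order, and 6, 9 and 9 when a nymph library was. The cell cycle members apart with nymphs higher, 18, were 13 with FPKM as deposited and 10 with equal totals, where 6.60% and 5.36% of all clusters were apart in that direction, and 14 to 25 with 1 library left out, namely 14 of 44 tested (31.8%) without nymph replicate 2 to 25 of 48 (52.1%) without adult replicate 2, where 16.3% and 22.1% of all clusters were apart that way. A pseudocount of 0.1 moved the median log2 difference to -1.38 over tested members and to -1.66 over tested cell cycle members, against -0.59 for all clusters. The median of all clusters was -0.33 as deposited, -0.40 with equal totals and -0.07 with quantile normalization, where that of the cell cycle members was -0.77, -0.83 and -0.50. In adult replicate 1, 37 members were listed above 0, and 37 at 0.1 or more, against 22 at an FPKM of at least 1. Same-numbered libraries correlated at 0.165, -0.043 and 0.213 in their deviations, so the numbers were not taken to pair the samples, and a replicate block gave 29 calls over all clusters and 0 among members. The causes of these shifts were not tested. Keeping the longest cluster per first protein match gave medians of -0.63 and -0.67.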
